A study of Homo sapiens with 12 samples.

Results

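The 10 genes described here encode secreted inflammatory signals and enzymes of prostaglandin synthesis. They are the CC chemokines CCL26 and CCL2, the CXC chemokines CXCL8, CXCL1 and CXCL2, the IL6 family cytokines IL6 and LIF, and the prostaglandin enzymes PLA2G4A, PTGS2 and PTGES. They make up 10 of the 60107 genes in the count table. The set was drawn up around CCL26 and PTGS2, which the study's paper names for carmofur, as it does PLA2G4A, and the other members were added by family or pathway. CCL26 and PTGS2 were thus chosen by their carmofur difference in U251P cells, and the rest with earlier results of these data known. Their values in that comparison are therefore a description, given with no p-value.

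Transcripts of U251 cells, an established human glioblastoma line, were counted by 3′ RNA-sequencing to learn which differ when the cells receive carmofur, an inhibitor of acid ceramidase. The libraries fall into 4 groups of 3, namely U251P with vehicle, U251P with carmofur, U251T with vehicle and U251T with carmofur. By the labels, all cells were starved of serum for 16 h and then kept for 24 h in full medium that held either DMSO, the vehicle, or carmofur. The labels do not say what P and T stand for, nor whether replicates were separate cultures. The study's methods describe its experiments in general as biological triplicates, without naming these libraries, so that the p-values measure the spread between libraries, part of which may be technical.

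Total gene counts ranged from 3295045 to 6350873 in U251P, from 566061 to 2817379 in U251T with vehicle and from 383633 to 1078340 in U251T with carmofur. Levels are given as CPM, counts per 1000000 of a library's total gene counts, and 3 counts over a group, the floor used here, were worth 0.220 CPM in U251P vehicle, 0.182 CPM in U251P carmofur, 0.640 CPM in U251T vehicle and 1.23 CPM in U251T carmofur. Each read of this method marks the 3′ end of a transcript, so that levels of different genes can be set side by side without dividing by length. The libraries labeled U251T stood apart from those labeled U251P. In vehicle, 10474 of the 12047 genes tested, or 86.9%, differed between the lines (edgeR quasi-likelihood test, Benjamini-Hochberg adjusted p under 0.05). The neural stem cell genes NES and SOX2, at 408 and 126 CPM in U251P vehicle, were at 0.631 and 0 CPM in U251T vehicle, whereas the astrocyte gene GFAP was at 0.101 and 72.0 CPM and the marker AQP4 was at 0 in all 12 libraries. Other glioma and astrocyte markers, VIM and CD44, were abundant in both lines, at 2906 and 1011 CPM in U251P vehicle and 12656 and 587 CPM in U251T vehicle. FABP7 and SLC1A3, at 10.7 and 22.8 CPM in U251P vehicle, were at 0.589 and 2.94 CPM in U251T vehicle. Of 10 leukocyte and microglia markers, AIF1, ITGAM, TYROBP, CX3CR1, P2RY12 and CD3E had 0 counts in every library. PTPRC had 8 counts in U251T vehicle and 7 in U251T carmofur, against 0 and 1 in U251P vehicle and carmofur. The summed level of the leukocyte and microglia list was 1.45 to 3.70 CPM in U251P and 8.52 to 21.2 CPM in U251T, most of it CD68. The 5 endothelial markers summed to at most 1.85 CPM in any library. Whether the libraries labeled U251T hold the same kind of cell as those labeled U251P is thus in doubt and was not tested, and values between the lines compare the libraries as labeled.

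Chemokines are small secreted proteins that draw leukocytes toward their source, the CC family acting mainly on monocytes, eosinophils and lymphocytes and the CXC members of this set on neutrophils. IL6 and LIF bind receptors that share the subunit gp130, encoded by IL6ST, and activate STAT3. Prostaglandin synthesis starts when cytosolic phospholipase A2 (PLA2G4A) releases arachidonic acid from membranes, continues with cyclooxygenase-2 (PTGS2), the inducible enzyme that makes prostaglandin H2, and ends for prostaglandin E2 with a synthase such as PTGES. Glioblastoma cells are known to secrete several of these factors, and NF-kB and AP-1 are well known regulators of many of the genes.

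The genes lie on 6 chromosomes (GRCh38, GENCODE release 29). CXCL8, CXCL1 and CXCL2 lie within 358.8 kb of chromosome 4, and PTGS2 (chromosome 1, 186671791 to 186680427, minus strand) ends 148.5 kb before PLA2G4A (chromosome 1, 186828953 to 186988981, plus strand). CCL26 lies on chromosome 7 from 75769533 to 75789896 on the minus strand, and IL6 on the same chromosome from 22725884 to 22732002 on the plus strand. IL6 overlaps STEAP1B and an antisense RNA, and LIF overlaps LIF-AS1 and another antisense RNA, all on the opposite strand, so that reads of these partners cannot be told apart from theirs without knowledge of strand. Over all libraries the partners of IL6 were given 216 and 10 counts and those of LIF 0 and 4. No 50-base stretch of the last 300 bases of 9 of the genes occurred in another gene's transcripts, and for PTGES 1.99% of the stretches did.

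Promoter sequences of 250 bases before and 50 bases after the transcript start were at hand from RefSeq (GRCh38.p14) for 8 of the 10 genes, all but CCL2 and LIF. The letters GGNNTTTCC, a NF-kB-like motif searched on both strands, occurred in the promoters of CXCL8, CXCL1, CXCL2 and IL6, and in 6.26% of all 35116 promoters. Those of CXCL8, CXCL1 and IL6 are shown because the genes carry such letters while their measured levels, below, differed widely. Capitals mark the motif, and each stretch is written 5′ to 3′ on the strand of its gene and holds no base of an annotated exon of that gene. The IL6 stretch lies in an intron of a longer annotated transcript. The matches of CXCL2 lie inside an exon of an annotated transcript and are not shown.
CXCL8, chr4:73740452-73740505, plus strand: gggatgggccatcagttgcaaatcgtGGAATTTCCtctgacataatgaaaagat
CXCL1, chr4:73869289-73869348, plus strand: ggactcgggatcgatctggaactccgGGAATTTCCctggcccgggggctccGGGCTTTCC
IL6, chr7:22727102-22727146, plus strand: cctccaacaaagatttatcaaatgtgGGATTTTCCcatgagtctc
The first matches read GGAATTTCC in CXCL8, CXCL1 and CXCL2 and GGATTTTCC in IL6, and CXCL1 and CXCL2 each hold a further match, GGGCTTTCC. Over the 250 bases before the start, CXCL1 was identical to CXCL2 in 70.1% of 281 aligned columns and to CXCL8 in 43.9%.

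The bases before PTGS2 and CCL26 are shown because the choice of the set rests on these genes. In the PTGS2 stretch, capitals mark TATAAA, the core promoter box, found in 11.5% of promoters and otherwise only in CXCL8 among the 8, and CGTCA, the core of the cyclic AMP response element, found in 24.6% of promoters and in PTGS2, CXCL8, CXCL2 and IL6. Neither of the letters searched above for NF-kB and for the core box occurred in the 300 bases of CCL26. The AP-1 motif TGANTCA, which 7.71% of promoters and CXCL8 among the 8 hold, was also not found there. The RefSeq start of CCL26 lies inside an exon of a longer annotated transcript, so its stretch is taken upstream of that exon.
PTGS2, chr1:186680428-186680543, minus strand: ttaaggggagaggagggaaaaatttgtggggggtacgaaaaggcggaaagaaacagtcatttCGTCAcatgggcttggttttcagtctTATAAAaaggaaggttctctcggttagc
CCL26, chr7:75789897-75789996, minus strand: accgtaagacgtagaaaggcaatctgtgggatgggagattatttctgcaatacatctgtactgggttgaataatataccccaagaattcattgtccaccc
A match is a string of letters and not evidence of binding, and a missing match says only that these letters are not in the window.

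**Figure D1:**
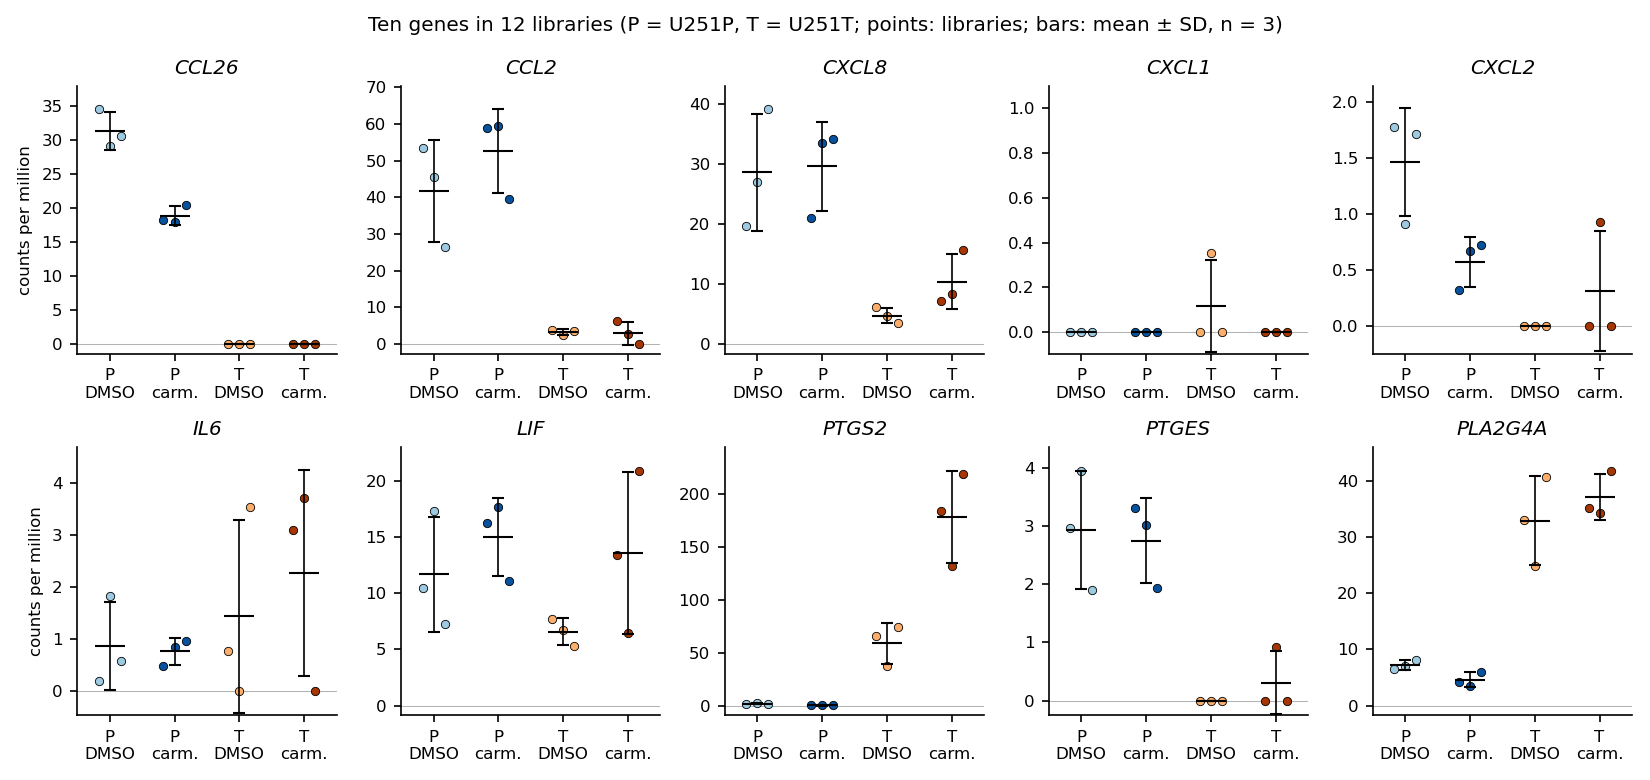
Level of each of the 10 genes in the 12 libraries, in CPM on a linear axis that differs between panels, for U251P (P) and U251T (T) with DMSO or carmofur (carm.). Points are libraries, horizontal bars the mean and vertical bars 1 SD (n = 3). CCL26 is present in U251P at 18.0 to 34.6 CPM and at 0 in all 6 U251T libraries, and PTGS2 is at most 2.12 CPM in U251P and at 37.3 to 219 CPM in U251T.

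CCL26, also called eotaxin-3, a chemokine for eosinophils that binds CCR3, was lower with carmofur in U251P. Its level was 34.6, 29.1 and 30.6 CPM in the 3 vehicle libraries and 18.3, 18.0 and 20.5 CPM in the 3 carmofur libraries. The groups did not overlap, and the mean went from 31.4 ± 2.81 CPM to 18.9 ± 1.39 CPM (SD, n = 3). The fitted log2 fold change was -0.72 (SE 0.153), and the ratio of the pooled counts, 308 against 432, was 0.590 with a 95% counting interval of 0.509 to 0.685. Counting intervals here are exact binomial intervals on pooled counts and cover counting error only. Leaving out each U251P library in turn kept the log2 fold change between -0.78 and -0.65. In bulk libraries, fewer cells that express a gene and less of its RNA per cell cannot be told apart. In U251T all 6 libraries had 0 counts of CCL26, which allows a level of up to 0.640 CPM in vehicle and 1.23 CPM in carmofur.

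The 3 genes whose log2 levels followed those of CCL26 most closely over the 6 U251P libraries, among 8116 genes with a mean of at least 10 CPM, were ARFGEF2 (Pearson r = 0.991), ZSWIM7 (r = 0.984) and SF3B2 (r = 0.983). These 6 points hold the treatment difference that chose CCL26, and the largest of so many correlations is high by selection. ARFGEF2 was at 48.1 ± 1.73 CPM with vehicle and 40.4 ± 1.20 CPM with carmofur, a smaller decrease than that of CCL26.

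CCL2, also called MCP-1, the main chemokine for monocytes, had the highest level of the set in U251P. It was at 53.5, 45.5 and 26.4 CPM with vehicle and at 58.9, 59.5 and 39.6 CPM with carmofur, so that the groups overlapped. The means were 41.8 ± 13.9 CPM and 52.6 ± 11.3 CPM, and the fitted log2 fold change was 0.38 (SE 0.207). It was 0.61 without the first vehicle library and 0.14 without the third. The pooled ratio of 1.32 had a counting interval of 1.19 to 1.47, narrower than the spread between libraries, in which the third vehicle library lay lowest. U251T held few CCL2 reads, 5, 7 and 2 with vehicle and 6, 3 and 0 with carmofur, or 3.29 ± 0.712 CPM and 2.99 ± 3.10 CPM. The carmofur ratio there was 1.24 with an interval of 0.473 to 3.07, and CCL2 was left out of the test for low counts.

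CXCL8, also called IL-8, a neutrophil chemokine, stood at the same mean level with and without carmofur in U251P. The vehicle libraries were at 19.7, 27.0 and 39.1 CPM and the carmofur libraries at 21.1, 33.6 and 34.3 CPM, with means of 28.6 ± 9.80 CPM and 29.7 ± 7.41 CPM. The log2 fold change of 0.06 (SE 0.244) was smaller than the spread between libraries. It became 0.40 without the third vehicle library and -0.17 without the first. In U251T, CXCL8 was at 6.15, 4.61 and 3.53 CPM with vehicle and at 7.22, 8.35 and 15.6 CPM with carmofur, from 2 to 13 counts per library. These groups did not overlap, but the pooled ratio of 1.84 had an interval of 0.979 to 3.46 that includes equal levels, and the gene did not pass the filter for the test.

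The other CXC chemokines of the set were at or near the limit of detection. CXCL1, which shares the receptor CXCR2 with CXCL2, had 0 counts in all 6 U251P libraries and in 5 of the 6 U251T libraries, with 1 count in the second U251T vehicle library. For CXCL2 the U251P vehicle libraries held 9, 3 and 9 counts and the carmofur libraries 2, 4 and 3, or 1.78, 0.910 and 1.71 CPM against 0.315, 0.672 and 0.724 CPM. Its groups did not overlap, and the pooled ratio was 0.355 with an interval of 0.143 to 0.808. In U251T it had 1 count, in the second carmofur library. CXCL1 and CXCL2 lay under CXCL8 in each of the 6 U251P libraries, and the 3 genes share the letters GGAATTTCC shown above.

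LIF, a cytokine of the IL6 family, was at 10.5, 17.3 and 7.22 CPM in U251P with vehicle and at 16.2, 17.6 and 11.1 CPM with carmofur. The groups overlapped, the means were 11.7 ± 5.15 CPM and 15.0 ± 3.44 CPM, and the log2 fold change was 0.46 (SE 0.271). It was 0.80 without the second vehicle library, which was the highest of its group, and 0.21 without the third. LIF had 10, 19 and 3 counts in the U251T vehicle libraries and 13, 7 and 8 in the carmofur libraries, or 6.58 ± 1.20 CPM and 13.6 ± 7.18 CPM. Those groups overlapped too, since the second carmofur library was at 6.49 CPM, and the pooled ratio of 1.69 had an interval of 0.978 to 2.89.

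IL6 itself was nearly undetected, with 1, 6 and 3 counts in U251P with vehicle and 3, 5 and 4 with carmofur. The ratio was 0.994 with an interval of 0.394 to 2.57, so that a difference of up to that size was not detectable at this depth. The U251T vehicle libraries held 1, 0 and 2 counts and the carmofur libraries 3, 4 and 0, a ratio of 4.49 with an interval of 1.03 to 26.9, and the groups overlapped. Neither line gave IL6 enough counts for the test.

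PTGS2, cyclooxygenase-2, differed in opposite directions in the lines. In U251P its vehicle libraries held 7, 7 and 8 counts and its carmofur libraries 1, 2 and 3, or 1.38, 2.12 and 1.52 CPM against 0.157, 0.336 and 0.724 CPM. Every carmofur library was under every vehicle library, and the pooled ratio was 0.226 with an interval of 0.0749 to 0.574. With 22 counts against 6, PTGS2 did not pass the filter in U251P.

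In U251T, PTGS2 was the most abundant gene of the set and rose with carmofur. Its level was 66.1, 37.3 and 74.2 CPM in the vehicle libraries, from 86, 105 and 42 counts, and 185, 133 and 219 CPM in the carmofur libraries, from 179, 143 and 84 counts. The lowest carmofur library lay above the highest vehicle library, and the mean went from 59.2 ± 19.4 CPM to 179 ± 43.5 CPM. The log2 fold change was 1.65 (SE 0.236), a 3.13-fold increase with an adjusted p of 8.39e-05 (edgeR quasi-likelihood test, Benjamini-Hochberg adjustment over 7204 genes), and the pooled ratio of 3.36 had a counting interval of 2.85 to 3.96. By comparison, 1231 of the 7204 genes tested in U251T passed, or 17.1%, of them 640 higher (8.88%) and 591 lower (8.2%). PTGS2 ranked 90 by fold change among the 640 and 151 by p-value among all genes tested. Leaving out each U251T library in turn kept its log2 fold change between 1.33 and 1.81, the lowest value being that without the second vehicle library, and its adjusted p at 0.00155 or less. The U251T carmofur libraries held 383633 to 1078340 counts against 566061 to 2817379 with vehicle, and between the same groups VIM fell by 0.67 and GFAP fell by 0.96 on the log2 scale while CD44 rose by 0.39. The part of depth and of these genes in the PTGS2 difference was not tested.

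PLA2G4A, the cytosolic phospholipase A2 that feeds cyclooxygenase, was at 6.52, 6.98 and 8.17 CPM in U251P with vehicle and at 4.25, 3.53 and 6.03 CPM with carmofur. The groups did not overlap, the means were 7.22 ± 0.853 CPM and 4.60 ± 1.29 CPM, and the log2 fold change was -0.66 (SE 0.300). The pooled ratio was 0.611 with an interval of 0.445 to 0.835. In U251T, PLA2G4A was at 33.1, 24.8 and 40.6 CPM with vehicle and at 35.1, 34.3 and 41.7 CPM with carmofur, and these groups overlapped. The log2 fold change there of 0.21 (SE 0.267), which was 0.02 without the second vehicle library, was within the spread between libraries (adjusted p of 0.661 in edgeR), with a pooled ratio of 1.23 and a counting interval of 0.931 to 1.62. PTGS2 and PLA2G4A were thus the only members tested in U251T, and 1 of the 2 passed.

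PTGES, the inducible microsomal prostaglandin E synthase, was at 2.96, 3.95 and 1.90 CPM in U251P with vehicle and at 3.31, 3.02 and 1.93 CPM with carmofur. The log2 fold change of 0.01 (SE 0.397), which was -0.22 without the third vehicle library and 0.23 without the second, left the groups overlapping, with a pooled ratio of 1.02 and an interval of 0.654 to 1.61. U251T had 0 counts of PTGES with vehicle and 1 with carmofur.

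**Figure D2:**
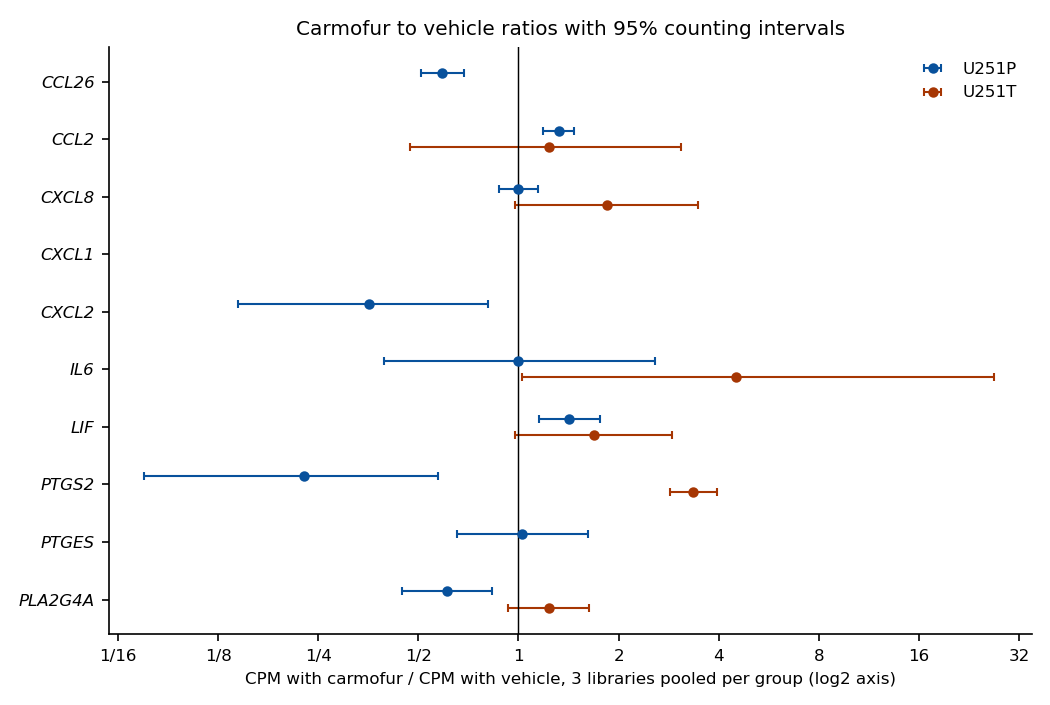
Ratio of the CPM with carmofur to that with vehicle for each gene, from counts pooled over the 3 libraries of each group, on a log2 axis, with exact 95% counting intervals (bars) that leave out the spread between libraries. Genes with counts at or under the floor in both groups have no point. The U251P point of PTGS2 lies at 0.226 and its U251T point at 3.36, on either side of the line of equal levels.

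Over the set in U251P, CCL26 and PLA2G4A of the 6 members tested, and CXCL2 and PTGS2 of the 4 that did not pass the filter, had non-overlapping groups, all 4 lower with carmofur. Groups did not overlap for 8.54% of the 11426 genes tested in U251P, and nothing is read from the members' count because this comparison chose them. Across all genes, 0 of 11426 passed (0.0%) in the edgeR quasi-likelihood test, against 402 with an unadjusted p under 0.05. The Wald test of DESeq2 also called 0 genes, with 235 at an unadjusted p under 0.05. In U251T, non-overlapping groups were found for 1 of the 2 members tested, PTGS2, and for 1 of the 8 not tested, CXCL8, both higher with carmofur, where 32.3% of the 7204 genes tested had non-overlapping groups.

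**Figure D3:**
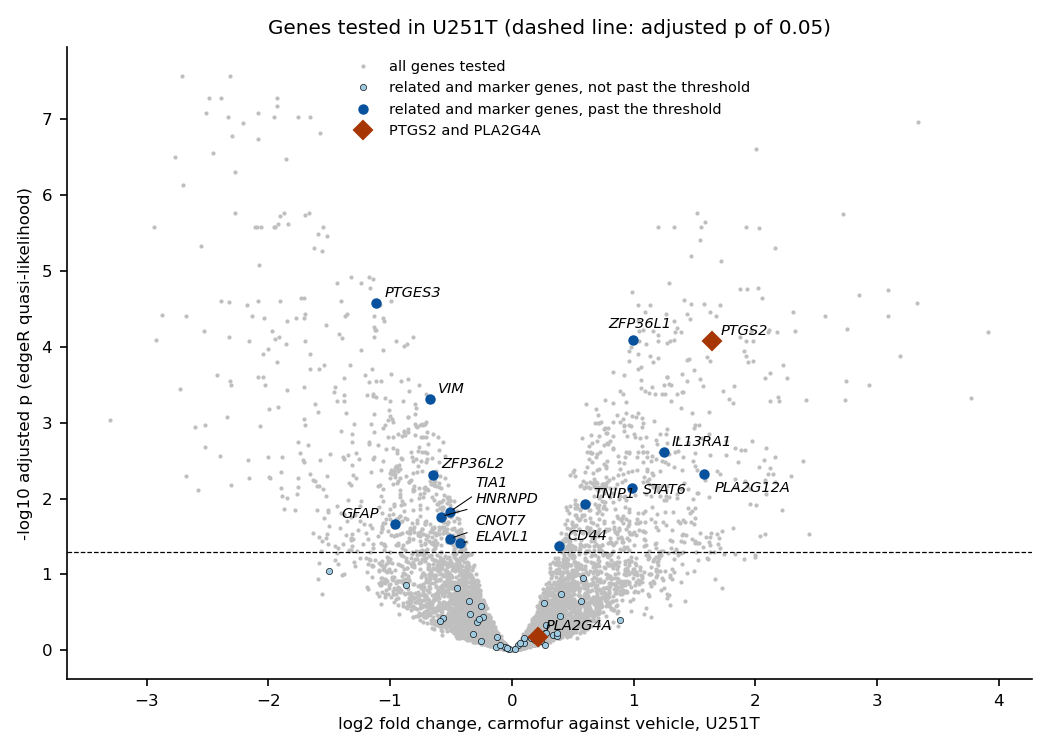
Log2 fold change with carmofur (horizontal) against -log10 of the adjusted p (vertical) for the 7204 genes tested in U251T, by the edgeR quasi-likelihood test. Diamonds are PTGS2 and PLA2G4A, large dots the related and marker genes past the dashed threshold of 0.05, and small circles those that were not. PTGS2 lies at 1.65 on the right arm among other genes that rose, and PLA2G4A at 0.21 near the bottom.

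The lines also differed in the level of these genes without drug, a comparison other than the one that chose CCL26 and PTGS2. The U251P vehicle libraries enter both, however, and the other members were chosen with earlier results of these data known. The choice of the genes may thus not be independent of this comparison. The chemokines CCL26, CCL2 and CXCL8 were lower and the prostaglandin enzymes PTGS2 and PLA2G4A higher in U251T. Of the 6 members tested, 5 passed, 3 lower and 2 higher, where 86.9% of all genes passed, 47.6% lower and 39.3% higher. The members' share is near that background. The filter on low counts asked for 3.27 CPM in 3 libraries, a level that all 3 libraries reached only in U251P for CCL26 and CCL2 and only in U251T for PTGS2. These 3 genes entered the test through the line in which they are high, so that their differences are given without a p-value and their calls support nothing.

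CCL26, with 432 counts in U251P vehicle and 0 in U251T vehicle, was at least 49.5-fold lower in U251T against the floor of 3 counts over the group. CCL2 was lower by a log2 fold change of -3.78 (SE 0.372), and CXCL8 by -2.57 (SE 0.372, adjusted p of 2.65e-07 in edgeR). PTGS2 was higher by 5.02 (SE 0.337), from 1.68 ± 0.395 CPM to 59.2 ± 19.4 CPM. PLA2G4A was higher by 2.04 (SE 0.286, adjusted p of 1.52e-07 in edgeR), from 7.22 ± 0.853 CPM to 32.8 ± 7.90 CPM. For each of these 5 genes the 3 libraries of one line lay entirely to one side of those of the other, as they did for 86.8% of all genes tested. LIF, at 11.7 ± 5.15 CPM and 6.58 ± 1.20 CPM, overlapped between the lines and did not pass (log2 fold change -0.74, SE 0.383, adjusted p of 0.0703), though it did without the third U251P vehicle library (-1.03, adjusted p of 0.0194) and with no filter on low counts (-1.10, adjusted p of 0.00501).

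Among the members left out of that test, PTGES was at least 4.36-fold lower and CXCL2 at least 2.41-fold lower in U251T, both from 0 counts there. IL6 had a ratio of 0.873 with an interval of 0.154 to 3.39, and CXCL1 was at or under the floor in both lines. With carmofur in both lines, PTGS2 was at 167 CPM over the 3 U251T libraries against 0.365 CPM in U251P, a ratio of 458 with an interval of 208 to 1255, and CCL26 was at least 15.2-fold lower in U251T.

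**Figure D4:**
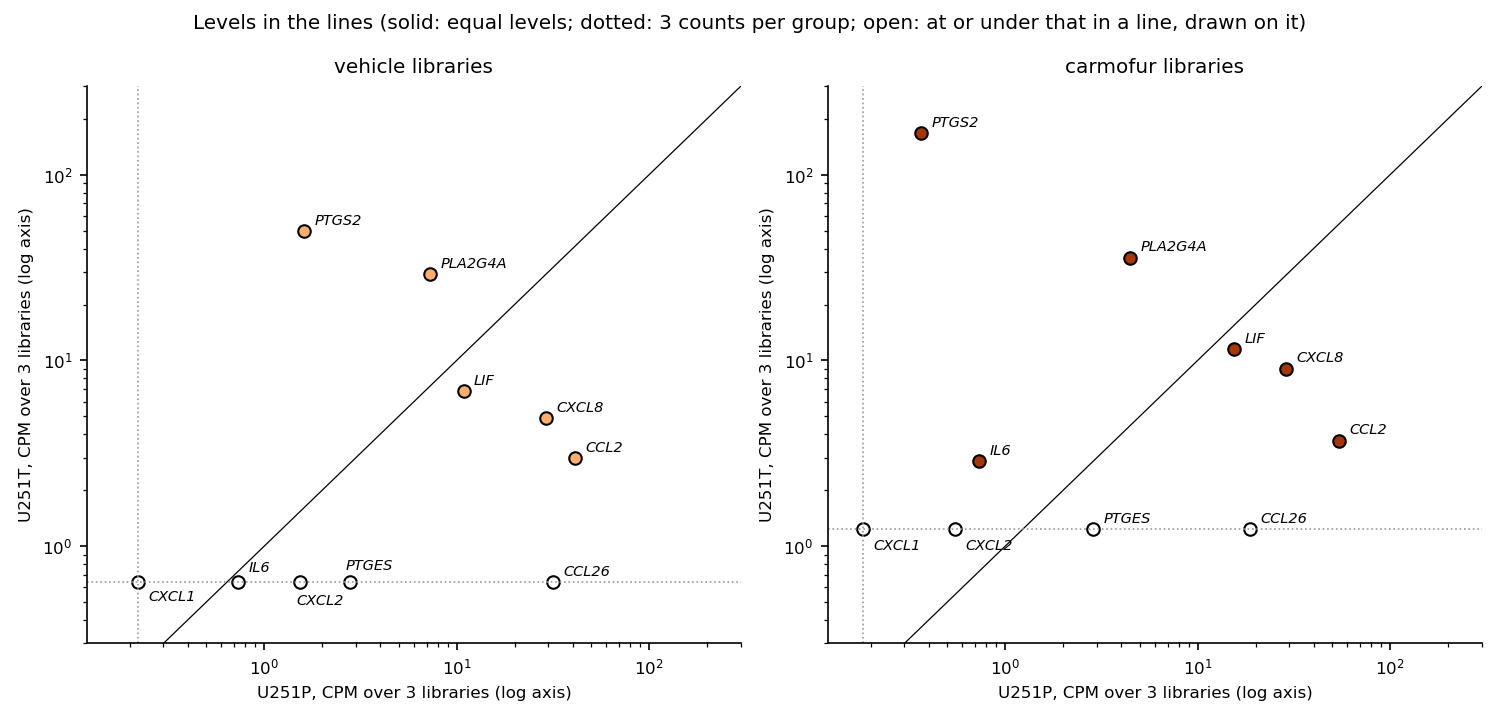
Level of each gene in U251P (horizontal) against U251T (vertical), as CPM over the 3 pooled libraries of a group, on log axes, for vehicle (left) and carmofur (right). The solid line marks equal levels, dotted lines mark 3 counts over a group, and open circles are genes at or under 3 counts in a line, drawn on the dotted line. PTGS2 and PLA2G4A lie above the solid line in both panels, and CCL26, CCL2 and CXCL8 lie below it.

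The order of levels followed from this. In U251P vehicle it ran from CCL2 (41.1 CPM over the pooled libraries) through CCL26 (31.7), CXCL8 (28.99), LIF (10.9), PLA2G4A (7.27), PTGES (2.79), PTGS2 (1.61), CXCL2 (1.54) and IL6 (0.734) to CXCL1 (0). The libraries of CCL2, CCL26 and CXCL8 overlapped one another, as did those of LIF and PLA2G4A and those of PTGES and PTGS2. Those of PTGS2, CXCL2 and IL6 also overlapped one another. In U251T vehicle the order began with PTGS2 (49.7 CPM) and PLA2G4A (29.03), which overlapped, followed by LIF (6.83), CXCL8 (4.91) and CCL2 (2.99), of which each overlapped the next.

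When the carmofur difference itself was compared between the lines in 1 fit of all 12 libraries, 560 of 13070 genes, or 4.28%, passed for the interaction of line and treatment. The fitted interaction of PTGS2, its log2 difference in U251T minus that in U251P, was 3.60 (SE 0.637), resting on 6 carmofur and 22 vehicle counts in U251P. It was 0.82 for PLA2G4A, 0.72 for CXCL8, 0.23 for LIF and -0.20 for CCL2. The value of LIF was -0.12 without the second U251P vehicle library, that of CCL2 was 0.08 without the third U251T carmofur library and -1.03 without the first, and that of CXCL8 was 0.38 without the third U251P vehicle library. These are descriptions with no p-value, since the U251P difference is among the values that chose the set.

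Genes of the same pathways, from lists drawn up with earlier results known, were then counted. In U251P, 0 of the 80 list genes tested passed in edgeR. An unadjusted p under 0.05 was found for 8 of the 80, and for 402 of all 11426 genes tested. In U251T, 11 of 52 passed, 5 higher and 6 lower, where 17.1% of all genes passed. An unadjusted p under 0.05 in edgeR was found there for 15 of the 52, and for 2153 of all 7204 genes tested. PLA2G12A, among the higher ones, entered the test through the carmofur libraries only, so that its call supports nothing. Chemokine, cytokine and receptor genes were mostly too low to test there.

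Of 30 other chemokines and cytokines, 9 were tested in U251P and 7 in U251T, and none passed for carmofur in edgeR. An unadjusted p under 0.05 was found for 3 and 1 of them, where 402 of 11426 and 2153 of 7204 genes had one. The median log2 fold changes of the list were 0.15 and -0.06. IL11, a cytokine that also signals through gp130 and the most abundant of the list in U251P, was at 96.5 ± 30.3 CPM with vehicle and 126.9 ± 25.2 CPM with carmofur and had 0 counts in U251T vehicle. TGFB2 was at 65.6 ± 5.59 CPM and 83.4 ± 16.9 CPM in U251P and at 213 ± 82.9 CPM and 312 ± 89.6 CPM in U251T (log2 fold change 0.59, adjusted p of 0.113). IL18, of the IL1 family, was at 26.0 ± 1.65 CPM and 34.1 ± 5.77 CPM in U251P. Between the lines 9 of the 9 tested differed, 6 higher in U251T and 3 lower, where 86.9% of all genes did, 39.3% higher and 47.6% lower. Among the 6, named after their values were seen, were the neutrophil chemokines CXCL3, CXCL5 and CXCL6 at 58.3, 34.6 and 34.4 CPM in U251T vehicle against 5.56, 0.164 and 0 CPM in U251P vehicle, whereas CXCL8 lay the other way. The 3 lower ones were IL11, IL18 and CX3CL1, which did not reach the filter level of 3.27 CPM in all 3 U251T vehicle libraries. CXCL3, CXCL5 and CXCL6 did not reach it in all 3 U251P vehicle libraries. All of these entered the test through the line in which they are high, so that their calls support nothing. None of 16 chemokine receptors had enough counts for a test. Those highest in U251P vehicle, CCR1, CCR10 and ACKR2, were at 0.164 to 0.228 CPM there, and only CXCR5 and ACKR3, in U251T, had over 3 counts in a group.

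Of 15 genes of the IL6 receptor family and STAT3 signaling, 12 were tested in U251P and 8 in U251T, and none passed for carmofur in edgeR. An unadjusted p under 0.05 was found for 1 and 2 of them, where 402 of 11426 and 2153 of 7204 genes had one. IL6ST, the shared receptor subunit of IL6 and LIF, was at 191 ± 63.7 CPM and 159.6 ± 11.8 CPM in U251P with vehicle and carmofur and at 13.4 ± 2.29 CPM and 11.6 ± 1.30 CPM in U251T. STAT3 was at 95.1 ± 2.24 CPM and 97.6 ± 11.01 CPM in U251P, and PTPN11, a phosphatase that binds the activated receptor, at 185 ± 16.3 CPM and 169 ± 12.4 CPM. In the comparison of the lines, 4 of 13 genes were higher in U251T and 8 lower, where 39.3% and 47.6% of all genes were. IL6ST was among the lower ones (log2 fold change -3.92, adjusted p of 1.58e-15 in edgeR). IL6R, TYK2 and OSMR did not reach 3.27 CPM in all 3 U251T vehicle libraries, nor SOCS1 in all 3 U251P vehicle libraries. They entered the test through the line in which they are high, so that their calls support nothing.

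A list of 5 genes held receptors of IL4 and IL13 and their factor STAT6, a pathway known to induce CCL26 in other cells. In U251P 3 were tested and none passed. Only 2 could be tested in U251T, where CCL26 had 0 counts, and both rose, where 8.88% of all genes tested did. IL13RA1 went from 21.9 ± 5.07 CPM to 52.1 ± 1.63 CPM in U251T (log2 fold change 1.25, SE 0.259, adjusted p of 0.00245), and STAT6 from 26.8 ± 2.64 CPM to 53.3 ± 3.69 CPM (0.99, SE 0.239, adjusted p of 0.00721). In U251P, IL13RA1 was at 44.8 ± 2.31 CPM and 43.2 ± 5.63 CPM, IL13RA2 at 23.0 ± 0.490 CPM and 25.02 ± 1.71 CPM and IL4R at 2.25 ± 0.652 CPM and 1.67 ± 0.638 CPM, while STAT6 was at 0.127 CPM. IL4R and IL13RA2 had 0 counts in U251T.

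Of 20 NF-kB pathway genes, 19 were tested in U251P and 12 in U251T, where 17.1% of all genes passed. TNIP1, an inhibitor of the pathway, was the single gene that passed, rising in U251T from 152 ± 18.4 CPM to 227 ± 24.1 CPM (log2 fold change 0.60, SE 0.156, adjusted p of 0.0118). NFKBIA, the inhibitor IkB-alpha and itself an NF-kB target, was at 64.0 ± 4.29 CPM and 76.5 ± 11.2 CPM in U251P and at 119 ± 14.9 CPM and 117 ± 22.6 CPM in U251T. MAP3K7, the kinase TAK1, and BIRC2 were at 46.9 ± 7.75 CPM and 39.6 ± 3.54 CPM in U251P vehicle and differed by less than the spread between libraries with carmofur (log2 fold changes -0.01 and 0.10). The lines split this list evenly, with 7 of 18 genes higher and 7 lower in U251T, where 39.3% and 47.6% of all genes were. RELB, NFKBIB, IKBKB and TRAF2 did not reach 3.27 CPM in all 3 U251T vehicle libraries. They entered the test through U251P, so that their calls support nothing.

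Of 25 other genes of prostaglandin synthesis, transport and reception, 11 were tested in U251P and 2 in U251T. PTGES3, the cytosolic prostaglandin E synthase, which is also the HSP90 co-chaperone p23, fell by 1.11 on the log2 scale in U251T (SE 0.140, adjusted p of 2.63e-05), from 645 ± 77.2 CPM to 302 ± 7.61 CPM. In U251P it was at 612 ± 43.9 CPM and 587 ± 53.4 CPM. In U251T with carmofur, therefore, the transcript of cyclooxygenase-2 was higher and that of this synthase lower, both with groups that did not overlap. AKR1B1 and CBR1, reductases that act on prostaglandins among other substrates, were at 107 ± 13.5 CPM and 82.6 ± 7.18 CPM in U251P vehicle and at 6.98 ± 4.53 CPM and 5.64 ± 3.35 CPM in U251T vehicle. PTGS1, the constitutive cyclooxygenase, had at most 5 counts in any group. Between the lines 1 of 9 genes was higher in U251T, the exporter ABCC4, and 6 were lower, where 39.3% and 47.6% of all genes were. PTGES2, AKR1B1, CBR1, PTGER4 and PTGFR, all among the lower ones, did not reach 3.27 CPM in all 3 U251T vehicle libraries. They entered the test through U251P, so that their calls support nothing.

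Of 23 further phospholipases A2 and enzymes that handle arachidonate, 22 matched a symbol, 9 were tested in U251P and 5 in U251T. PLA2G12A, a secreted phospholipase A2, was higher with carmofur in U251T, from 11.1 ± 5.11 CPM to 32.6 ± 1.12 CPM (log2 fold change 1.58, SE 0.357). Its lowest vehicle library was at 7.45 CPM, and all 3 libraries reached the filter level only with carmofur. PLA2G12A entered the test through the group in which it is high, so that its call supports nothing and is given without a p-value. In U251P it was at 20.5 ± 1.64 CPM and 20.0 ± 2.08 CPM. MBOAT7 and ACSL4, which return arachidonate to phospholipids, were at 83.1 ± 5.32 CPM and 73.3 ± 10.5 CPM in U251P vehicle and at 0.825 ± 0.889 CPM and 387 ± 37.9 CPM in U251T vehicle. PNPLA2, a triglyceride lipase, was at 31.8 ± 2.71 CPM and 0.375 ± 0.385 CPM. Carmofur left these 3 within the spread between libraries in U251P, with log2 fold changes from -0.08 to 0.09.

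Messages of several of these genes, PTGS2 and CXCL8 among them, carry AU-rich elements in their 3′ ends, which proteins bind to speed or slow decay. A list of 19 genes held proteins that bind these elements together with general factors of message decay, CNOT7 among them. In U251P 17 were tested and none passed. In U251T 16 were tested, of which 1 rose and 5 fell, against 8.88% of all genes higher and 8.2% lower. ZFP36L1, which promotes decay, rose from 490 ± 52.9 CPM to 980 ± 178 CPM (log2 fold change 1.00, SE 0.142, adjusted p of 8.19e-05). Its relative ZFP36L2 fell by 0.65 on the log2 scale (adjusted p of 0.00484 in edgeR), from 697 ± 104 CPM to 446 ± 79.0 CPM. ELAVL1, also called HuR, which stabilizes such messages, fell by 0.43 on the log2 scale, and HNRNPD, TIA1 and CNOT7 fell by 0.58, 0.51 and 0.51, with adjusted p-values of 0.0384, 0.0173, 0.0150 and 0.0337. KHSRP, the most abundant of the list in U251P at 977 ± 52.8 CPM, was at 91.6 ± 6.23 CPM in U251T vehicle and 91.6 ± 10.4 CPM in U251T carmofur. The list's median log2 fold change in U251T was -0.25 and that of all genes tested 0.01.

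**Figure D5:**
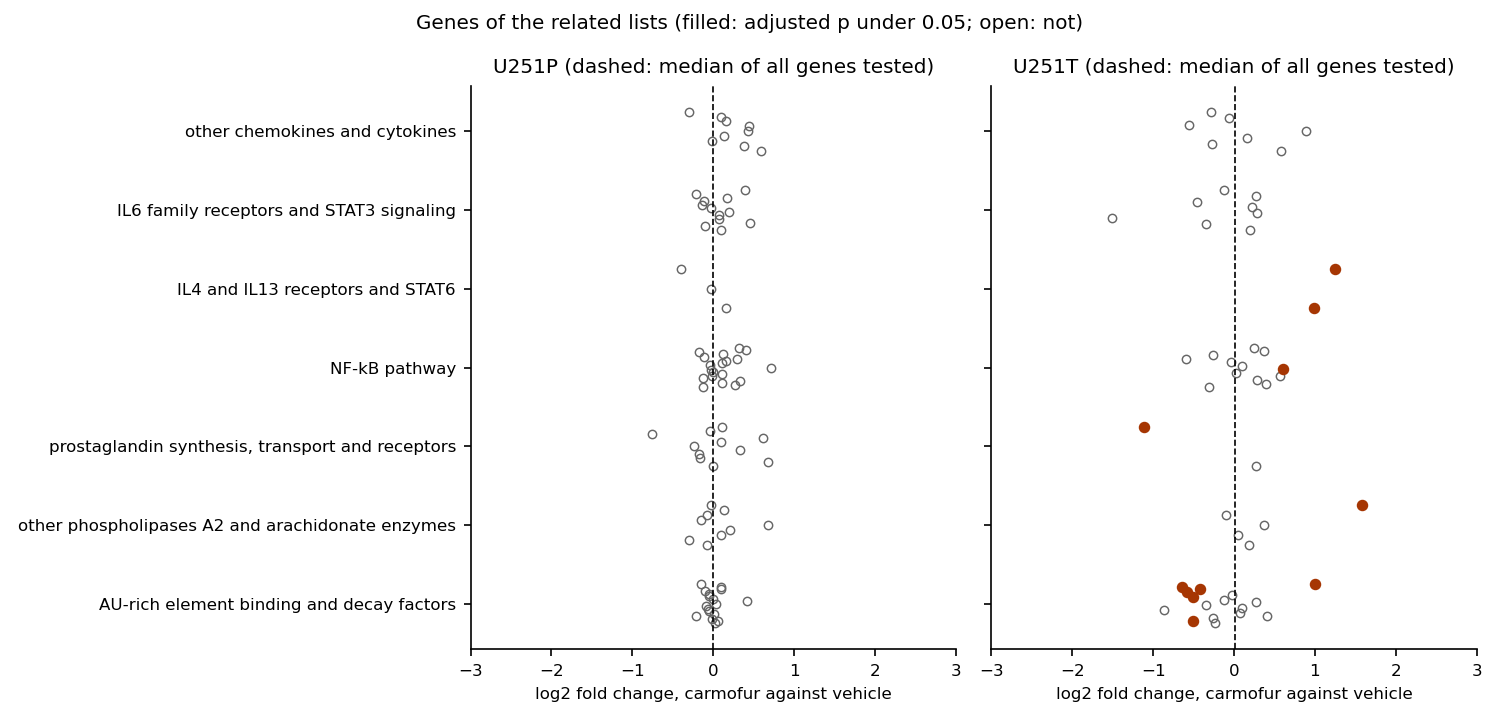
Log2 fold change with carmofur (horizontal) of the tested genes of each related list (rows), in U251P (left) and U251T (right). Filled points had an adjusted p under 0.05 in the edgeR test, open points did not, and the dashed line is the median of all genes tested. Fills were drawn for U251T only, where the filled points are the 5 that rose and the 6 that fell. In U251P 0 of the genes passed in the test.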

How the data were processed

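Gene expression was measured in 12 libraries labeled as U251 cells by QuantSeq 3′ mRNA sequencing. The authors trimmed and mapped the reads in the BlueBee pipeline and deposited whole read counts for each Ensembl gene identifier, not normalized. The submitters' processing notes name hg38. The counting tool, annotation, use of strand and handling of PCR copies are not given in the sources used here. The labels place carmofur in the final medium, whereas the study's paper also places it in the starvation step.

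From the counts, groups were compared in R (4.3.3) by edgeR (4.0.16) quasi-likelihood tests after filterByExpr and TMM scaling, with Benjamini-Hochberg adjustment over all genes at 0.05. The fits were carmofur against vehicle in each line, U251T against U251P in vehicle, and the interaction of line and carmofur. Standard errors are the log2 fold change over the root of F. CPM was the count over a library's total, and pooled ratios have exact 95% binomial intervals that cover counting error only. With 3 libraries against 3, the smallest two-sided p that exact permutation allows is 0.1, so that it was not used. The steps were tested on simulated data with 200 changed genes.

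The members and lists were chosen with earlier results of these data known. Named genes are all 10 members, the 3 most abundant genes of each list in U251P vehicle, list genes that passed in a carmofur comparison, and the 3 genes most like CCL26 (Pearson correlation of log2(CPM + 1), mean of at least 10 CPM). Any other gene of the related lists was named after its values were seen, which the text says only for CXCL3, CXCL5 and CXCL6. Alternatives were DESeq2 (1.42.0), upper-quartile normalization, no filter, the replicate number as a block, and each library left out in turn. Symbols were matched for 56104 of 60107 identifiers. Other steps used Python (3.11.15), scipy (1.17.1), pandas (2.3.3) and matplotlib (3.10.9).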

Additional observations from a re-analysis of the deposited data

Results flagged for a closer look

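The carmofur difference of PTGS2 went in opposite directions in the lines, with every U251P carmofur library under every U251P vehicle library and every U251T carmofur library above every U251T vehicle library. The fitted difference between the lines was 3.60 on the log2 scale (SE 0.637), the pooled ratios being 0.226 in U251P and 3.36 in U251T. No p-value is given, because the U251P values were among those that chose the gene. The U251P side rests on 22 vehicle and 6 carmofur counts.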

How the results depend on the processing

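Over 26 results and 16 alternative settings, no value that passed a test changed sign. Of 236 log2 fold changes of members, 12 changed sign, all of them among the values given with no test, 5 for PTGES and 3 for CXCL8 in U251P and 2 each for LIF and CCL2 in the interaction. In U251P, 0 genes passed, against 19 with no filter on low counts and 0 to 1 with each library left out, the 1 being without the third carmofur library. In U251T, 1231 genes passed, with 837 to 1195 when each library was left out, and PTGS2 passed under every alternative, with log2 fold changes from 1.33 to 1.81. Of the members, 5 passed between the lines, where 10474 of 12047 genes did, and 3 of the 5 entered that test through the line in which they are high. With no filter on low counts 8 members passed, where 13866 of 25294 genes did. In DESeq2 6 members passed, where 12243 of 25294 genes did, and 6 also passed without the third U251P vehicle library. For the interaction 560 genes passed, with 367 to 721 when each library was left out, 367 being without the first U251T carmofur library. In U251P the log2 fold change of LIF was 0.80 without the second vehicle library that of CXCL8 was 0.40 without the third, and that of CCL2 was 0.14 without the third and 0.61 without the first. The cause of these changes was not tested.

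Samples with the same replicate number were not shown to be paired, with correlations of their deviations from the group means of -0.0276 to 0.292 in U251P and 0.0759 to 0.334 in U251T, and not every sample correlated best with its own number. With the replicate number as a block, 1 gene passed in U251P, 2078 in U251T and 1156 for the interaction, and no member's call changed. In U251T, 8 of the 10 members had too few counts for the test, and 3 counts over a group were worth 0.640 CPM with vehicle and 1.23 CPM with carmofur.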
